A study of Mus musculus with 20 samples.

Results

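The genes described here encode ligands and enzymes through which a cell restrains or aids an immune response. They are 10 named genes (Cd274, Pdcd1lg2, Cd80, Cd86, Cd276, Lgals9, Pvr, Cd47, Ido1 and Arg1), matched by gene symbol among 43432 genes measured by RNA sequencing. Each matched 1 gene, and 8 of the 10 had enough reads to be tested; Ido1 and Arg1 did not. The 20 libraries fall into 7 groups by cell type label, all from nude mice, a strain that lacks a thymus and so most T cells. SU3, beside or from which the 5 lines arose, is a line of human glioma stem cells. C12 (3 libraries) is labelled as macrophages that became malignant beside SU3 and peritoneal washing cells in a dish, and ih_CTC (3) as macrophages that did so in a peritoneal xenograft. ih_DCTC (3) is labelled as bone marrow dendritic cells grown with SU3. ih_BCTC (3) is labelled as oligodendrocytes recovered from an SU3 tumour of the brain. ih_STC_BM (3) is labelled as mesenchymal stem cells grown from an SU3 tumour, in a mouse with damaged and rebuilt marrow. MDSC (3) are myeloid-derived suppressor cells and MSC (2) mesenchymal stem cells of normal marrow, both of which the study calls precursors of the lines other than ih_BCTC. All were kept in DMEM with fetal bovine serum, and the labels speak of monoclonal culture, so a line may be 1 clone. They give no age, batch or replicate number, and they do not say whether libraries of a group came from separate cultures, so p-values speak only of library-to-library spread, which may be technical.

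T cells need a signal through CD28 in addition to antigen, and CD80 and CD86 on antigen-presenting cells supply it, or restrain the T cell through CTLA-4. PD-L1 and PD-L2 engage the inhibitory receptor PD-1, galectin-9 binds TIM-3, and PVR binds the inhibitory receptor TIGIT and the activating receptor CD226. CD47 holds back phagocytosis by macrophages through SIRP alpha, whereas IDO1 and ARG1 deplete tryptophan and arginine around T cells. In gliomas many of these molecules are carried by tumour-infiltrating myeloid cells as well as by tumour cells.

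Each library held 8794777 to 12400640 expected counts, and 67.42% to 77.0% of reads were mapped. Levels are given as CPM, the count of a gene scaled to its library's size by TMM. Introns took 9.64% to 10.36% of the reads of MDSC libraries, 2.07% and 3.09% of those of MSC, and between 1.02% and 8.52% in line libraries. Between MDSC and MSC, the intron share and the group cannot be told apart. Fits that include the share as a covariate adjust for it mainly through its spread within the lines. The labelled cell types were set against their markers before the results. Summed over 14 leukocyte and myeloid markers, no line library exceeded 109.2 CPM (lowest 8.978), against 16180 to 16500 in MDSC. Leukocyte markers were near absent from the lines labelled as macrophages and dendritic cells. The 2 MSC libraries, labelled as mesenchymal, held 17990 and 24150 CPM of these leukocyte transcripts, led by the lysozyme gene Lyz2 at 15440 ± 3268 CPM (SD, n = 2), beside 6045 to 6550 CPM of 10 mesenchymal markers. Mesenchymal markers summed to 2971 to 11970 CPM in the lines and 23.57 to 25.95 in MDSC. MDSC also held granulocyte (33860 to 36240 CPM), erythroid (11950 to 12290), lymphocyte (1199 to 1253) and endothelial (104.2 to 110.3) transcripts. In the lines these sums reached at most 11.88, 9.013, 0.9406 and 7.891 CPM, and in MSC 135.2, 3.437, 2.195 and 67.08. Oligodendrocyte markers summed to 9.164 to 11.12 CPM in ih_BCTC, with Olig2, Sox10 and Mog at 0, and to 142.2 to 163.5 in MDSC. In such bulk samples, fewer cells of a type and less RNA per cell cannot be told apart.

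Across the 7 groups, the means of the PD-1 ligand and CD28 ligand genes stood highest in MDSC, next in MSC and lowest in the lines. Cd80 was not called different between MDSC and MSC, and the MSC libraries overlapped the lines in Pdcd1lg2. Cd276 and Pvr ran the other way, with each line above MDSC and MSC. Cd47 was abundant everywhere and highest in MDSC. Lgals9 was highest in MSC, and its level in C12 lay beside that in MDSC. Ido1 and Arg1 had few or no reads in any group. The plot of levels by library shows each gene.

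**Figure D1:**
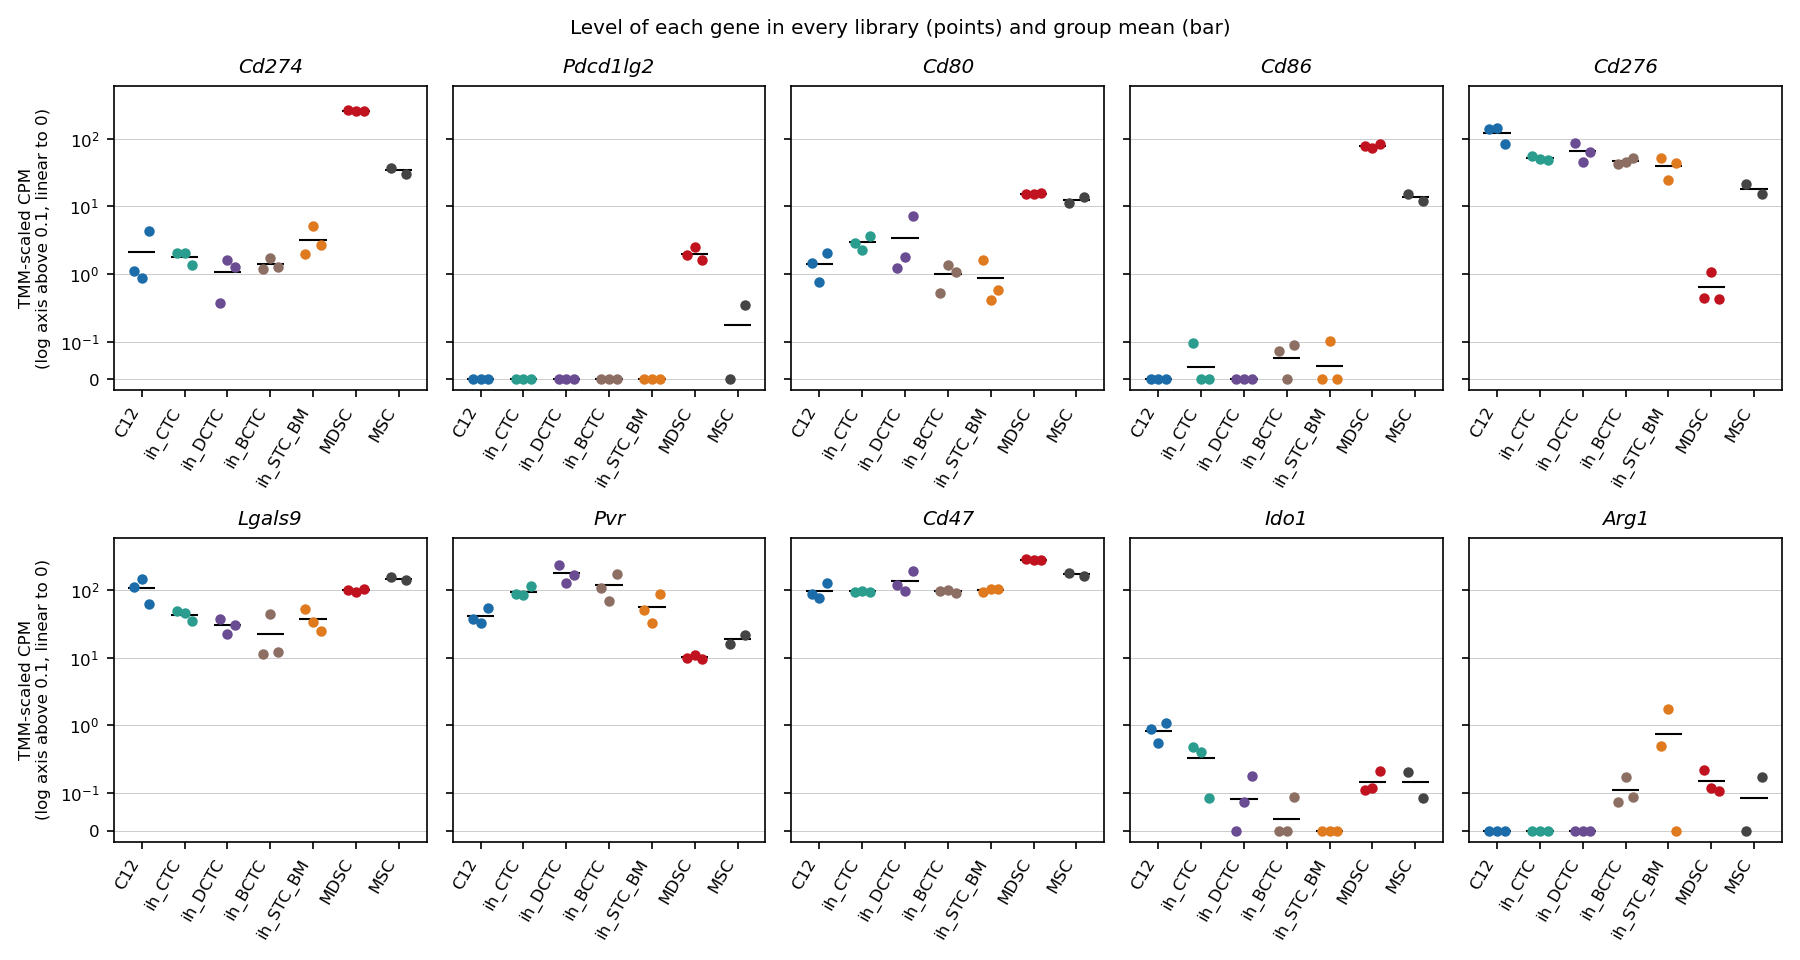
TMM-scaled CPM of the 10 genes in every library (points, coloured by group) with the group mean as a bar; the vertical axis is logarithmic above 0.1 CPM and linear below. Cd274, Cd80 and Cd86 are higher in every MDSC and MSC library than in any line library, and Cd276 and Pvr are lower there.

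Cd274 encodes PD-L1, the broadly expressed and interferon-inducible ligand of PD-1 (ENSMUSG00000016496, chromosome 19, 29367455 to 29388095, plus strand). Its level was 263, 252 and 256 CPM in the MDSC libraries and 37.2 and 30.5 CPM in MSC. C12 had 1.10, 0.877 and 4.31 CPM, ih_CTC 2.02, 2.04 and 1.37, ih_DCTC 0.374, 1.58 and 1.27, ih_BCTC 1.202, 1.72 and 1.27, and ih_STC_BM 1.97, 5.07 and 2.64. No line library reached either reference group, and the libraries of neighbouring lines overlapped throughout. Against MDSC, Cd274 was 118-fold lower in C12 (log2 fold change -6.89 ± 0.58, SE; edgeR adjusted p = 2.72e-08), 141-fold lower in ih_CTC (adjusted p = 1.85e-08) and 227-fold lower in ih_DCTC (adjusted p = 1.04e-08). The C12 value was log2 -8.00 without C12 replicate 3, -5.18 with the intron share in the fit and -5.87 without the line libraries under 3% introns; the intron share made it -6.26 in ih_CTC and -6.47 in ih_DCTC. Against MSC it was 10.3-fold lower in ih_STC_BM (log2 -3.37 ± 0.53, edgeR adjusted p = 0.000105) and 24.1-fold lower in ih_BCTC (log2 -4.59 ± 0.56, adjusted p = 5.33e-06). With the intron share in the fit these were log2 -3.98 and -5.50, and without the line libraries under 3% introns the ih_STC_BM value was -2.77. MDSC exceeded MSC by 7.59-fold (log2 2.92 ± 0.56, edgeR adjusted p = 0.000435). That last difference was 0.94 with an adjusted p of 0.212 when the intron share, which goes with the group here, entered the fit. Per kilobase of exon, Cd274 was the most abundant of the 10 genes in MDSC (70.9 CPM per kb), while in the lines its level was 0.297 to 0.891 CPM per kb.

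Pdcd1lg2, which encodes the other PD-1 ligand, PD-L2, of more restricted expression on antigen-presenting cells, begins 22823 bases downstream of Cd274 on the same strand (ENSMUSG00000016498, chromosome 19, 29410919 to 29471157). All 15 line libraries had 0 counts. MDSC had 1.88, 2.52 and 1.60 CPM (53 counts in all), and MSC had 0 and 0.351 CPM, the latter from 4 counts. Only through MDSC did Pdcd1lg2 pass the filter on low counts, so its tests against MDSC were bound to show MDSC higher and lend no support. The gene was at least 20.4-fold lower in C12, 22.7-fold in ih_CTC and 21.4-fold in ih_DCTC than in MDSC, taking a floor of 3 counts over the group of libraries, with edgeR adjusted p = 0.00238, 0.00231 and 0.00239. These calls were lost with DESeq2 (adjusted p = 0.26, 0.262 and 0.259); fits that included the intron share lost them too (0.778, 0.39 and 0.644). Against MSC neither ih_STC_BM (adjusted p = 0.141) nor ih_BCTC (adjusted p = 0.0957) passed in edgeR, and at this depth the bounds were 1.57-fold and 2.29-fold. The levels in MDSC and MSC differed by log2 3.35 ± 1.08 (adjusted p = 0.0383), a call that was lost without any 1 of the MDSC libraries (adjusted p = 0.0699 to 0.0942), without MSC replicate 1 (log2 2.46, 0.149), with DESeq2 (0.646) and with MDSC summed (0.186). The value was 7.36 without MSC replicate 2, the library with the 4 counts, and 0.58 with the intron share in the fit (adjusted p = 0.505).

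For these neighbouring genes, the 250 bases before their start in RefSeq (GRCm38.p6) are shown, on the plus strand, 5′ to 3′. Capitals mark a GC box (GGGCGG) at -31 in Cd274, at chr19:29367188-29367437, and a palindrome of the STAT6 kind (TTC and GAA with 4 bases between) at -82 in Pdcd1lg2, at chr19:29410669-29410918.
Cd274: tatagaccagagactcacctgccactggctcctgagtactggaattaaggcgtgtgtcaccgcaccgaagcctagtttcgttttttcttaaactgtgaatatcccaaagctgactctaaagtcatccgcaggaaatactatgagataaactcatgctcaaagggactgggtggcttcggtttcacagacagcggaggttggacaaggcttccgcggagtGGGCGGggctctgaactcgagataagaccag
Pdcd1lg2: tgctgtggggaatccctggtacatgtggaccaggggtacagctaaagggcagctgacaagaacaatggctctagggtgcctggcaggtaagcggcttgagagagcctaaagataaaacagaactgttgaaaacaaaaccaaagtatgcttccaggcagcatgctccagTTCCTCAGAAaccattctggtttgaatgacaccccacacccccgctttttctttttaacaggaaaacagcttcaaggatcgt
The Cd274 window held 11 CG dinucleotides and that of Pdcd1lg2 held 3, against a median of 6 over 32851 such windows. The searched motifs, on both strands, and the share of all windows that held each were GGGCGG (32.7%), the STAT6 pattern above (5.85%), the GAS element, which is TTC and GAA with 3 bases between (7.02%), the interferon regulatory factor repeat, which is GAAA and GAAA with 2 bases between (2.98%), and TATAAA (12.4%). Of these, each window held only the 1 marked in capitals. A match describes the letters in the window and not a bound site.

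Cd80 and Cd86 encode the ligands of CD28 and CTLA-4, and both lie on chromosome 16 (Cd80, ENSMUSG00000075122, 38458933 to 38486933, plus strand; Cd86, ENSMUSG00000022901, 36603869 to 36666081, minus strand). Cd80 stood at 15.2, 15.4 and 15.7 CPM in MDSC and at 11.2 and 13.5 CPM in MSC. Line libraries ranged from 0.405 CPM, in ih_STC_BM, to 7.17 CPM, in 1 ih_DCTC library whose fellows had 1.25 and 1.81. All lay below both reference groups. Cd80 was lower than in MDSC, with log2 fold changes of -3.42 ± 0.62 in C12, -2.40 ± 0.58 in ih_CTC and -2.17 ± 0.58 in ih_DCTC (edgeR adjusted p = 0.000148, 0.00208 and 0.00387). The ih_DCTC call was lost with the intron share in the fit (adjusted p = 0.0866), and its value was log2 -3.31 without ih_DCTC replicate 3. Against MSC it was 14.2-fold lower in ih_STC_BM (edgeR adjusted p = 0.000353) and 12.4-fold lower in ih_BCTC (adjusted p = 0.000335). The ih_STC_BM value of log2 -3.83 was -4.64 without ih_STC_BM replicate 1 and -4.93 without the line libraries under 3% introns. MDSC and MSC differed by log2 0.32 ± 0.62 (adjusted p = 0.705).

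Cd86 was all but absent from the lines. MDSC had 77.7, 72.6 and 83.8 CPM and MSC 15.2 and 11.9. Of the 15 line libraries, 11 had 0 counts, and the 4 counts in all fell in 1 ih_CTC, 1 ih_STC_BM and 2 ih_BCTC libraries. Only through MDSC and MSC did Cd86 pass the filter on low counts. Its tests of lines against these groups were thus bound to show the lines lower and lend no support. Cd86 was at least 808-fold lower in C12 and at least 844-fold lower in ih_DCTC than in MDSC, and 2688-fold lower in ih_CTC (95% counting interval 482 to 106200); the edgeR adjusted p was at most 1.1e-08. Relative to MSC, it was 333-fold lower in ih_STC_BM (interval 59.3 to 13200) and 242-fold lower in ih_BCTC (66.3 to 2006), with edgeR adjusted p = 1.16e-06 and 6.32e-07. In MDSC it exceeded MSC by 5.75-fold (adjusted p = 0.000608), which was lost with the intron share in the fit (adjusted p = 0.73). Intervals and floors cover counting error only.

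The differences of Cd274, Cd80 and Cd86 between the lines and MDSC or MSC went the same way as the leukocyte marker sum. Those of Pdcd1lg2 did so against MDSC, but against MSC neither ih_STC_BM nor ih_BCTC was called. Of the 14 genes of that sum, 13 were lower in C12, 14 in ih_CTC and 13 in ih_DCTC than in MDSC. Against MSC, 13 were lower in ih_STC_BM and in ih_BCTC. Over all tested genes, 30.5%, 27.1% and 28.1% were lower in those comparisons with MDSC, and 17.4% and 20.8% in those with MSC. The part of leukocyte content in these results, and in those of every other gene compared with MDSC or MSC, was not tested. Between MDSC and MSC, Cd274 and Cd86 were higher in MDSC, while the marker sum was higher in MSC (17990 and 24150 CPM, against 16180 to 16500). The leukocyte genes did not move together there. Ptprc, the gene of the common leukocyte antigen CD45, had 1556 ± 28.9 CPM in MDSC and 214 ± 32.2 in MSC (n = 2), and Cd74, the invariant chain gene, had 4311 ± 134 and 69.8 ± 32.1. Lyz2 went the other way, with 5672 ± 148 CPM in MDSC.

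**Figure D2:**
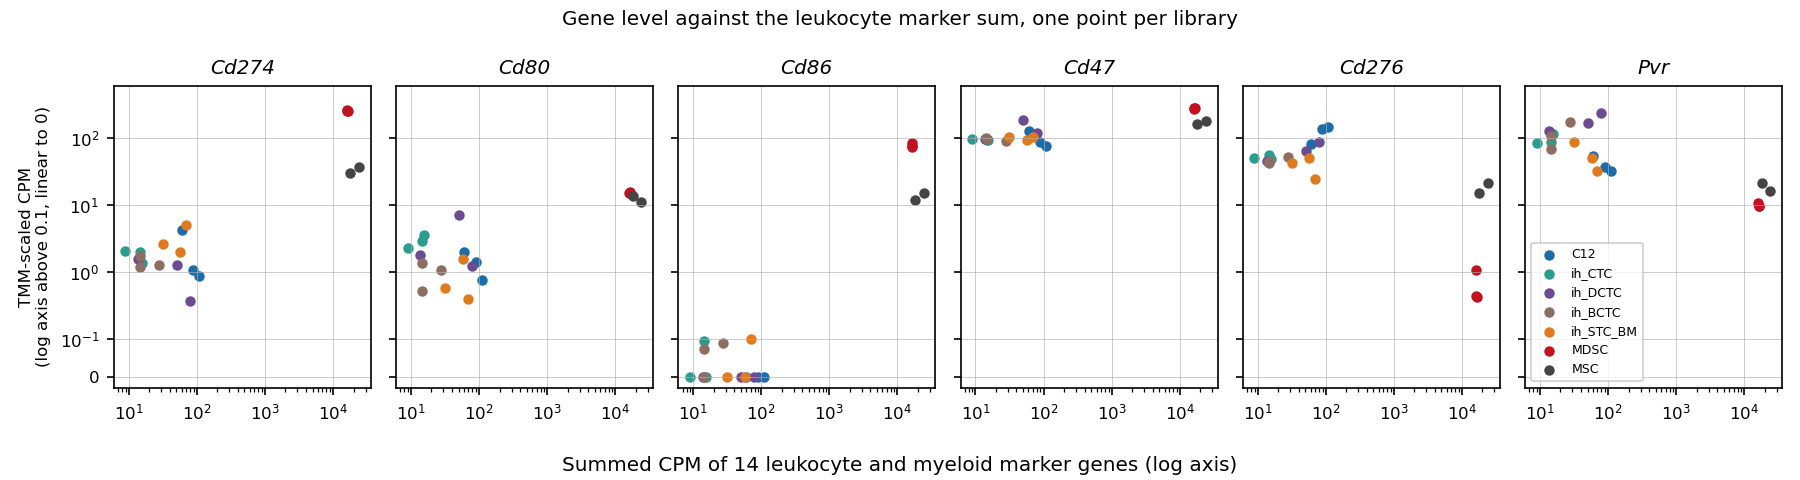
TMM-scaled CPM of 6 genes (log above 0.1, linear below) against the summed CPM of 14 leukocyte and myeloid markers (log axis), 1 point per library, coloured by group. Lines lie at 8.978 to 109.2 CPM of markers and MDSC and MSC at 16180 or more, and no library lies between.

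Cd276 encodes B7-H3, a B7 family member found on many tumours and stromal cells whose receptor is not settled (ENSMUSG00000035914, chromosome 9, 58524300 to 58555132, minus strand). C12 had the highest levels, 138, 144 and 82.0 CPM. The other lines had 56.2, 49.9 and 48.3 CPM in ih_CTC, 86.9, 45.4 and 63.4 in ih_DCTC, 42.1, 45.6 and 51.7 in ih_BCTC, and 51.4, 24.4 and 43.1 in ih_STC_BM. MSC had 21.1 and 15.2 CPM, and MDSC only 0.442, 1.08 and 0.426. Every line library was above both reference groups. Cd276 was 186-fold higher in C12 than in MDSC (log2 7.54 ± 0.46, edgeR adjusted p = 6.9e-10), 78.8-fold in ih_CTC (adjusted p = 2.84e-09) and 99.8-fold in ih_DCTC (adjusted p = 1.76e-09). It was 27.8-fold lower in MDSC than in MSC (log2 -4.80 ± 0.44, edgeR adjusted p = 2.15e-07). With the intron share in the fit, log2 values were 6.35 in C12 and 5.71 in ih_DCTC against MDSC and -3.58 in MDSC against MSC. Against MSC the lines exceeded it by log2 1.36 ± 0.38 in ih_BCTC (adjusted p = 0.0102) and 1.13 ± 0.38 in ih_STC_BM (adjusted p = 0.0316). The ih_STC_BM call was lost in a fit of ih_STC_BM and MSC only (edgeR adjusted p = 0.173) and without ih_STC_BM replicate 1 (0.104) or 3 (0.0502). It was also lost without MSC replicate 1 or 2 (log2 1.38 and 0.90), and the ih_BCTC call without MSC replicate 2 (log2 1.14). Without the line libraries under 3% introns, the ih_STC_BM difference was 0.39 (adjusted p = 0.303). The mesenchymal sum moved with the differences from MDSC. In the comparison with MSC, 2 of 10 mesenchymal markers were higher and 0 lower in ih_STC_BM, and 3 were higher and 1 lower in ih_BCTC. Over all tested genes, 14.8% were higher and 17.4% lower in ih_STC_BM, and 15.9% and 20.8% in ih_BCTC. The part of mesenchymal content was not tested.

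Pvr, the gene of the poliovirus receptor CD155 (ENSMUSG00000040511, chromosome 7, 19903578 to 19921160, minus strand), was also higher in every line library than in any MDSC or MSC library. It stood at 235, 127 and 167 CPM in ih_DCTC, 106, 69.4 and 176 in ih_BCTC, 88.3, 83.8 and 114 in ih_CTC, 50.8, 32.5 and 87.2 in ih_STC_BM and 37.5, 32.6 and 53.9 in C12. MDSC had 9.83, 10.8 and 9.70 CPM and MSC 16.1 and 21.6. Against MDSC, Pvr was higher by 17.4-fold in ih_DCTC (log2 4.12 ± 0.42, edgeR adjusted p = 2.18e-07), 9.42-fold in ih_CTC (adjusted p = 2.59e-06) and 4.08-fold in C12 (adjusted p = 0.000223). The excess over MSC was 6.20-fold in ih_BCTC (adjusted p = 0.000208) and 3.01-fold in ih_STC_BM (adjusted p = 0.00941), by edgeR. The latter was lost in a fit of ih_STC_BM and MSC only (edgeR adjusted p = 0.101). It was also lost without MSC replicate 1 (log2 1.39) and without the line libraries under 3% introns (log2 0.74). MDSC and MSC differed by log2 -0.90 ± 0.41 (adjusted p = 0.0835), which passed in a fit of these groups only (0.00328) and without the line libraries under 3% introns (0.0238). The counted region overlaps a processed pseudogene and an antisense gene with at most 37 and 2 counts in any library, and the counting is not stated to use strand.

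Lgals9 encodes galectin-9, a secreted and surface lectin (ENSMUSG00000001123, chromosome 11, 78962974 to 78984946, minus strand). MSC had 154 and 141 CPM and MDSC 101, 93.8 and 105. C12 had 112, 148 and 61.9 CPM, overlapping both. The other lines were lower and overlapped one another, from 11.6 CPM in ih_BCTC to 53.1 in ih_STC_BM, and 1 ih_BCTC library (44.5) stood above its fellows (11.6 and 12.1). C12 and MDSC differed by log2 0.10 ± 0.44 (edgeR adjusted p = 0.855), a value that turned to -0.17 without C12 replicate 2 and to -0.77 with the intron share in the fit. Lgals9 was lower than in MDSC, at log2 -1.73 ± 0.45 in ih_DCTC (adjusted p = 0.00341) and -1.21 ± 0.45 in ih_CTC (adjusted p = 0.029). The ih_CTC call was lost without ih_CTC replicate 2 or 3 or MDSC replicate 1 or 3 (adjusted p = 0.0578 to 0.098). It was also lost under upper quartile scaling (edgeR adjusted p = 0.0572) and in the test above log2 1 (0.273). With MDSC summed, the ih_CTC value was log2 -1.31 and the call was lost too. Against MSC, Lgals9 was 3.97-fold lower in ih_STC_BM (adjusted p = 0.00476) and 6.51-fold lower in ih_BCTC (adjusted p = 0.00037), by edgeR. The ih_DCTC value was log2 -2.39 with the intron share in the fit, and the ih_BCTC value moved from -2.70 to -3.64 without ih_BCTC replicate 2. MDSC and MSC differed by log2 -0.56 ± 0.49 (adjusted p = 0.362), which passed in a fit of these groups only (0.00112).

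Cd47 (ENSMUSG00000055447, chromosome 16, 49855618 to 49915010, plus strand) was expressed in all 20 libraries. MDSC had 284, 276 and 280 CPM and MSC 180 and 163. Lines had 77.4 to 127 CPM in C12, 94.6 to 98.1 in ih_CTC, 95.5 to 189 in ih_DCTC, 89.3 to 102 in ih_BCTC and 94.6 to 106 in ih_STC_BM. The highest ih_DCTC library, at 189 CPM, exceeded both MSC libraries, and every other line library was below them. Relative to MDSC, Cd47 was 2.88-fold lower in C12 (log2 -1.53 ± 0.25, edgeR adjusted p = 4.66e-05), 2.92-fold in ih_CTC (adjusted p = 4.29e-05) and 2.08-fold in ih_DCTC (adjusted p = 0.00128). Differences from MSC were smaller, at log2 -0.83 ± 0.27 in ih_BCTC (adjusted p = 0.0207) and -0.75 ± 0.27 in ih_STC_BM (adjusted p = 0.0392), and MDSC exceeded MSC by log2 0.71 ± 0.28 (adjusted p = 0.0433). Of 30 alternative fits for each, 5, 15 and 17 took the adjusted p of these 3 calls above 0.05, including the fits without either MSC library. Its count was not whole in 15 libraries, so reads were shared with other loci, and a pseudogene with up to 138 counts overlaps it.

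Ido1 (ENSMUSG00000031551, chromosome 8, 24584136 to 24597009) encodes the first enzyme of tryptophan breakdown to kynurenine, and Arg1 (ENSMUSG00000019987, chromosome 10, 24915208 to 24927470) an arginase typical of suppressive myeloid cells. Ido1 had 0.879, 0.548 and 1.10 CPM in C12 (8, 5 and 14 counts) and 0.481, 0.408 and 0.0856 in ih_CTC, and no more than 0.213 CPM in any other library. C12 libraries were above all others. Arg1 had 0 counts in C12, ih_CTC and ih_DCTC, and 4, 17 and 0 counts in ih_STC_BM, of which the highest was 1.72 CPM. MDSC had 0.221, 0.120 and 0.107 CPM of Arg1, from 4 counts in all. Both genes failed the filter on low counts. With no filter, Ido1 differed between C12 and MDSC by log2 2.47 (edgeR adjusted p = 0.034) and among the 5 lines (adjusted p = 0.00305), as did Arg1 (0.00868).

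Counted over the 8 tested genes, C12 differed from MDSC in 2 higher and 5 lower, where 61.7% of all 15779 tested genes were called, 31.3% higher and 30.5% lower. ih_CTC had 2 higher and 6 lower than MDSC (all genes 55.3%, with 28.2% higher and 27.1% lower), and ih_DCTC 2 higher and 6 lower (59.3%, with 31.2% and 28.1%). ih_STC_BM had 2 higher and 5 lower than MSC (all genes 32.1%, with 14.8% and 17.4%), and ih_BCTC 2 higher and 5 lower (36.7%, with 15.9% and 20.8%). MDSC had 4 higher and 1 lower than MSC (all genes 46%, with 20.4% and 25.6%). The mean of C12, ih_CTC and ih_DCTC had 2 higher and 6 lower than MSC (37.5%, with 15.5% and 21.9%), the lower set including Pdcd1lg2 on the strength of 4 counts in 1 MSC library. The higher genes were Cd276 and Pvr in each comparison of a line with MDSC or MSC. The median log2 fold change of the 8 was -2.48 in C12, -1.97 in ih_CTC and -1.95 in ih_DCTC against MDSC, beside 0.03, 0.08 and 0.09 over all genes tested. It was -2.68 in ih_STC_BM and -3.17 in ih_BCTC against MSC, beside 0.02 and 0.04. Genes that passed the filter only through a group where they were high had to differ, so these counts and medians describe the genes and support nothing. Comparisons with MDSC share its 3 libraries, and those with MSC its 2.

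**Figure D3:**
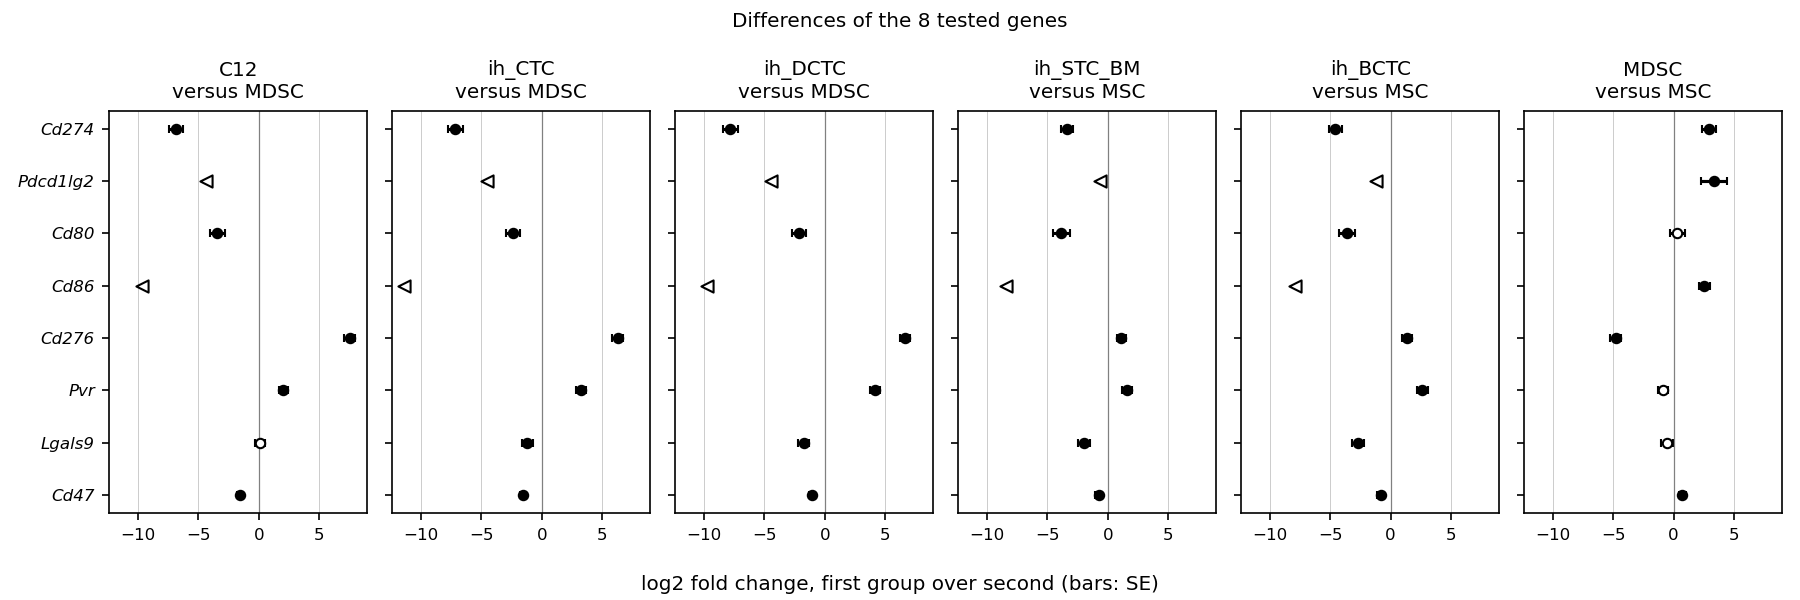
Log2 fold changes of the 8 tested genes in 6 comparisons (horizontal axis, the group named first over the second), with SE as bars; filled points passed an adjusted p under 0.05, and open triangles are bounds or ratios from groups with 0 to 3 counts. Cd276 and Pvr lie right of 0 in the 5 panels of lines, and Cd274, Cd80 and Cd86 left of it.

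Among the 5 lines, a joint test asked whether a gene's level was equal in all of them. It called 4 of the 8 genes, where 33.2% of all tested genes were called. Pvr means ran from 41.3 ± 11.2 CPM (SD, n = 3) in C12 to 176 ± 54.9 in ih_DCTC, a 4.27-fold range (edgeR adjusted p = 0.0023). Cd276 ran from 39.7 ± 13.8 CPM in ih_STC_BM to 122 ± 34.4 in C12, a 3.07-fold range (adjusted p = 0.00497). The C12 line thus had the lowest mean of Pvr and the highest of Cd276. Lgals9 ran from 22.7 ± 18.8 CPM in ih_BCTC to 108 ± 43.4 in C12 (adjusted p = 0.0049), and Cd80 from 0.865 ± 0.645 in ih_STC_BM to 3.40 ± 3.27 in ih_DCTC (adjusted p = 0.0415). The Lgals9 call was lost without the line libraries under 3% introns (adjusted p = 0.134), and the Cd80 call in 17 of 29 alternatives, among them the fits without either MSC library. The Pvr and Cd276 calls held in all 29 alternatives each, with adjusted p at most 0.0128 and 0.0305. Cd274 (adjusted p = 0.146), Cd86 (0.469) and Cd47 (0.325) did not pass, and Pdcd1lg2 was at 0 in every line. Cd274 passed without C12 replicate 3 (0.0177), with the intron share in the fit (0.00578) and without the line libraries under 3% introns (0.000386).

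The intron share differed among libraries of the same line, and the genes did not follow it alike in all lines. In C12, shares of 2.52%, 1.02% and 5.23% went with 1.10, 0.877 and 4.31 CPM of Cd274 and with 112, 148 and 61.9 CPM of Lgals9. In ih_STC_BM, shares of 2.34%, 8.52% and 1.79% went with 1.97, 5.07 and 2.64 CPM of Cd274 with 51.4, 24.4 and 43.1 CPM of Cd276 and with 53.1, 33.4 and 25.1 CPM of Lgals9. In ih_DCTC, shares of 2.33%, 5.99% and 5.25% went with 0.374, 1.58 and 1.27 CPM of Cd274. Its Cd276 levels were 86.9, 45.4 and 63.4 CPM and its Lgals9 levels 38.0, 22.3 and 30.2. The C12, ih_STC_BM and ih_DCTC libraries with the most intron reads thus had the most Cd274 and the least Cd276 of their group. Lgals9 was least in those of C12 and ih_DCTC but not in that of ih_STC_BM. In ih_CTC and ih_BCTC the library with the most intron reads (7.32% and 6.63%) had the most Cd276 of its group, 56.2 and 51.7 CPM. Those libraries did not have the most Cd274, with 2.02 CPM against 2.04 in ih_CTC replicate 2 and 1.27 against 1.72 in ih_BCTC replicate 2. Shares in these lines varied little, from 6.1% in ih_CTC and from 5.62% in ih_BCTC. In the library with the most intron reads, Pvr was highest of the group in C12 (53.9 CPM) and ih_BCTC (176). It was lowest in ih_DCTC (127) and ih_STC_BM (32.5), and between its fellows in ih_CTC (88.3).

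**Figure D4:**
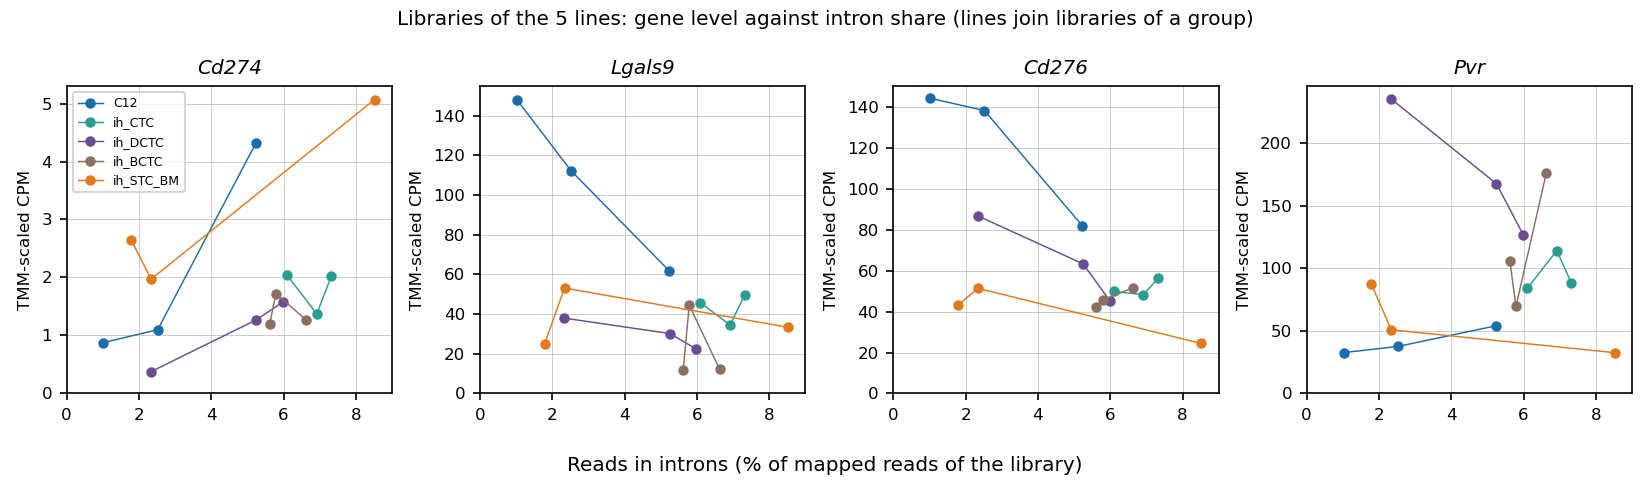
TMM-scaled CPM of Cd274, Lgals9, Cd276 and Pvr (linear axes) against the percentage of reads in introns for the 15 line libraries, with lines joining libraries of a group. The C12 library at 5.23% has the highest Cd274 and the lowest Lgals9 and Cd276 of C12.

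Read against each other per kilobase of exon, the genes held different ranks in different groups. In MDSC, Cd274 (70.9 CPM per kb), Lgals9 (46.8), Cd47 (44.6) and Cd86 (21.3) led, and Cd276 was last of the 8 tested genes at 0.178. C12 was led by Lgals9 (50.3) and Cd276 (33.2), ahead of Cd47 (15.5) and Pvr (6.75). In ih_DCTC the order was Pvr (28.8), Cd47 (21.5), Cd276 (17.8) and Lgals9 (14.1). In MSC, Lgals9 (69.2) and Cd47 (27.3) stood above Cd274 (9.34), Cd276 (4.97), Cd86 (3.71), Cd80 (3.35) and Pvr (3.08). Lengths are those of merged exons in GENCODE M21, whose gene ends differ from the deposited ones for 5 of the 10 genes.

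Over the 20 libraries, the genes whose log2 CPM ran most like each member were found as a description. Libraries of a group share their source, so these values largely restate the groups. For Cd274 they were Mgat4a (Pearson r = 0.985) and Siglece (0.979), and for Cd86 Pilrb1 (0.997) and Xlr4b (0.996). For Pdcd1lg2 they were Gp9 (0.998), a platelet gene, and Epx (0.995), the eosinophil peroxidase gene. Cd80 ran most like Lilrb4 (0.933) and Susd1 (0.926), and Cd47 like Ccm2l (0.959) and Rasgrp4 (0.953). Cd276 ran most like Map6 (0.990) and Tsku (0.983), Pvr like Clmn (0.934), and Lgals9 like Abi3 (0.932) and the chemokine gene Ccl9 (0.923). Between members, Cd274 and Cd86 had r = 0.969 and Cd274 and Cd276 -0.938.

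Other genes of these pathways were counted from lists. Of all tested genes, 31.3% were higher and 30.5% lower in C12 than in MDSC. In ih_CTC these shares were 28.2% and 27.1%, and in ih_DCTC 31.2% and 28.1%. Against MSC, they were 14.8% and 17.4% in ih_STC_BM and 15.9% and 20.8% in ih_BCTC. Counts of the lists here and below were not tested against these shares, and some lie near them. Genes of any list, the marker lists included, that passed the filter only through MDSC or MSC had to be lower in the lines. Such counts describe the genes and lend no support. Of 12 B7 and nectin family ligands, 11 were tested, and against MDSC 4 were higher and 4 lower in C12, 3 higher and 5 lower in ih_CTC, and 6 higher and 5 lower in ih_DCTC. Against MSC, 2 were higher and 5 lower in ih_STC_BM, and 4 and 4 in ih_BCTC. Vsir, the gene of the inhibitory ligand VISTA, stood at 402 ± 3.28 CPM in MDSC and 333 ± 135 in MSC (n = 2), and line means ran from 7.87 to 33.4. Of 10 TNF family ligands and Cd40, 6 were tested, and each of the 3 comparisons with MDSC had 1 higher and 5 lower. The higher one was Tnfsf9, the 4-1BB ligand gene, at 11.5 to 25.3 CPM in the lines, 4.14 ± 0.538 in MDSC and 4.86 ± 0.0462 in MSC, and it was also the 1 called higher than MSC in ih_STC_BM and ih_BCTC. There, 2 and 4 of the list were lower. Cd40, a receptor that licenses antigen-presenting cells, was at 48.1 ± 1.12 CPM in MDSC and at most 1.71 in a line mean.

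The 12 receptors of these ligands were all tested, with 0 higher and 11, 10 and 11 lower in C12, ih_CTC and ih_DCTC than in MDSC. Among them, Btla had 112 CPM in MDSC, 0.263 in MSC and at most 0.0366 in a line mean. It passed the filter on low counts only through MDSC. Against MSC, 5 were lower in ih_STC_BM and in ih_BCTC, with 0 and 1 higher. Sirpa, the CD47 receptor gene, was at 2025 ± 398 CPM in MSC (n = 2), 280 ± 7.40 in MDSC and 12.5 to 48.3 in the lines. Among 7 other ligands, partners and modifiers of CD47, 3 were higher and 2 lower in each of C12, ih_CTC and ih_DCTC than in MDSC. In C12, Thbs2 stood at 625 ± 83.4 CPM against 1.67 ± 0.621 for MDSC, and Thbs1, a thrombospondin that binds CD47, at 99.8 ± 82.6 against 712 ± 19.3. MSC had 214 ± 2.92 CPM of Thbs2 and 2255 ± 676 of Thbs1 (n = 2). In ih_STC_BM and ih_BCTC, 0 and 1 were higher and 3 and 2 lower than in MSC. Of 7 other galectins, 4 were tested. Lgals1 and Lgals3 were at 3477 ± 2539 and 1965 ± 1038 CPM in C12, against 93.1 ± 0.797 and 357 ± 12.5 in MDSC (edgeR adjusted p = 6.83e-06 and 0.00258). In MSC they were at 2209 ± 154 and 4826 ± 2703 CPM (n = 2). Galectins called against MDSC were 2 higher and 2 lower in C12, 1 higher and 2 lower in ih_CTC, 2 higher and 2 lower in ih_DCTC, and 0 higher and 1 lower in both comparisons with MSC.

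Among 11 other suppressor enzymes, 10 were tested, with 3 higher and 6 lower in C12 and 4 higher and 5 lower in ih_CTC and in ih_DCTC than in MDSC. Ptges, the prostaglandin E synthase gene, was at 178 ± 65.4 CPM in C12, 304 ± 89.3 in ih_CTC, 496 ± 297 in ih_DCTC and 5.58 ± 0.489 in MDSC. Nos2, the inducible nitric oxide synthase gene, was at 90.5 ± 39.5, 82.5 ± 57.1 and 251 ± 181 CPM in those lines and 1.46 ± 0.177 in MDSC. Against MSC, 3 enzymes were higher in ih_STC_BM and in ih_BCTC, and 5 and 3 were lower. In those lines Ptgs2, the cyclooxygenase 2 gene, was at 179 ± 66.0 and 1025 ± 455 CPM, beside 4.29 ± 3.12 in MSC (n = 2).

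Interferon gamma signalling, which induces Cd274 and Ido1, had 10 genes tested, with 0 higher and 9, 8 and 7 lower in C12, ih_CTC and ih_DCTC than in MDSC. Irf1, a transcription factor of that pathway, stood at 111 ± 27.9 CPM in C12, 401 ± 3.903 in MDSC and 55.6 ± 4.76 in MSC (n = 2). Line means of Irf1 ran from 40.5 to 111 CPM. In ih_STC_BM 1 was higher and 5 lower than in MSC, and in ih_BCTC 2 and 5. Of the 7 genes of the IL-4 receptor and STAT6, which induce Pdcd1lg2 and Arg1, 0 were higher and 6, 4 and 4 lower than in MDSC. Stat6 was at 241 ± 1.32 CPM in MDSC and 99.2 to 116 in the lines. Against MSC, 1 was higher and 3 lower in ih_STC_BM, and 2 and 2 in ih_BCTC. Of the 8 genes that act on PD-L1 protein, against MDSC 2 were higher and 1 lower in C12, 2 higher and 2 lower in ih_CTC, and 3 higher and 1 lower in ih_DCTC. Cmtm6, whose product protects PD-L1 from degradation, stood at 168 ± 5.30 CPM in MDSC and 102 ± 3.80 in MSC, with line means of 23.2 to 37.4. In this list 0 were higher and 1 lower in ih_STC_BM, and 2 and 1 in ih_BCTC, than in MSC. Where a list is given with 0 higher by edgeR, the count at an unadjusted p under 0.05 was also 0, except 1 for the IL-4 receptor list in ih_DCTC against MDSC and 2 for the genes acting on PD-L1 protein in ih_STC_BM against MSC. These lists were not counted with the other tools.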

How the data were processed

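RNA from 20 mouse cell samples was extracted with TRIzol and made into TruSeq libraries, per the labels' protocols. The deposited table holds expected counts per gene, per the file headers; STAR, DESeq2 and RSEM 1.2.26 are listed, with no roles, in the submitters' processing notes. No source used here gives the genome build. Per-library percentages of mapped and intronic reads came from a table the authors deposited. Coordinates are those of the deposited annotation; promoters are from RefSeq (GRCm38.p6), which held 6 of the 10 genes, and only the windows of Cd274 and Pdcd1lg2, which lie outside gene models, are printed.

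Counts were rounded and TMM-scaled, and filterByExpr (minimum count 10, total 15) left 15779 of 43432 genes. The quasi-likelihood test of edgeR 4.0.16 (R 4.3.3) was fitted to all 20 libraries and 7 groups, without covariates, with two-sided tests and Benjamini-Hochberg adjustment over all tested genes within a comparison, threshold 0.05. The members and gene lists were chosen with earlier results of these data known. Besides all 10 members, up to 3 genes of highest group mean could be named per list, and the 2 most correlated genes (prior count 2) per member, unnamed or predicted genes left out; some genes that met these rules are not reported here. All 142 genes of 16 lists were matched, 7 of them through newer symbols. Folds against 0 counts are bounds at 3 counts over the group; with 1 to 3 counts they are ratios with 95% counting intervals. On simulated data for C12 against MDSC, run on 14931 genes, calls covered 3 of 78 genes with a 2-fold change, 27 of 59 with a 4-fold and 53 of 58 with a 16-fold change, and 4 of 14736 unchanged genes. Far fewer genes differed there than in the data, where 61.7% were called. The adjustment was therefore stricter in the simulation, and these rates need not hold for the data. Alternatives were scaling by RLE or by the upper quartile, no filter, DESeq2 1.42.0, limma-voom 3.58.1, the compared groups only, a test above log2 1, each library left out, the intron share as covariate, the line libraries under 3% introns left out, and MDSC summed.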

Additional observations from a re-analysis of the deposited data

Results flagged for a closer look

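The levels of 4 genes differed among the 5 lines by the joint test in edgeR, at adjusted p = 0.0023 for Pvr, 0.0049 for Lgals9, 0.00497 for Cd276 and 0.0415 for Cd80. Pvr had its highest mean in ih_DCTC and its lowest in C12, Cd276 and Lgals9 had their highest in C12, and Cd80 had its highest in ih_DCTC. The Cd80 difference includes 1 ih_DCTC library at 7.17 CPM, with the others of that line at 1.25 and 1.81.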

How the results depend on the processing

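Over 64 results with a test, 1904 refits gave 1784 with the same direction and side of the threshold, 108 that lost the call, 7 that gained it and 5 that reversed. The call never changed for 38. Reversals were log2 -0.17 (without C12 replicate 2), -0.77 (intron share as covariate) and -0.67 (without line libraries under 3% introns) for Lgals9 in C12 against MDSC (-0.17 to 0.381 over the fits without 1 library), and with the covariate -0.20 for Cd80 and 0.29 for Lgals9 in MDSC against MSC. None of these was called. The number of members called changed from 7 to 4 in ih_STC_BM against MSC in the compared groups only and with the test above log2 1. In MDSC against MSC it changed from 5 to 3 with that test, to 1 with the covariate and to 3 with MDSC summed, and it rose to 7 in the compared groups only and to 6 without line libraries under 3% introns. In the mean of C12, ih_CTC and ih_DCTC against MSC it changed from 8 to 5 with that test. The cause was not tested; the test above log2 1 asks for larger differences by construction.

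Leaving out each library gave 7 to 8 members called in C12, 7 to 8 in ih_CTC and 8 to 8 in ih_DCTC against MDSC, 4 to 7 in ih_STC_BM and 5 to 7 in ih_BCTC against MSC, 3 to 5 in MDSC against MSC, 6 to 8 for the mean of C12, ih_CTC and ih_DCTC against MSC, and 3 to 5 among the lines. The 4 came without MSC replicate 1, and the 3 in MDSC against MSC without that library or any MDSC library. Pairs of groups at 0 counts of Pdcd1lg2 gave no value. Of 140 rescaled levels, 13 moved by more than 1 SD. Over all genes, the calls in ih_STC_BM against MSC changed from 5066 to 1904 in the compared groups only, 2708 above log2 1 and 7971 with the covariate. For MDSC against MSC they went from 7259 to 11072 in the compared groups only, 4443 above log2 1 and 4088 with MDSC summed. For ih_BCTC they went from 5784 to 3355 above log2 1 and to 9213 without low-intron libraries. For the mean they went from 5910 to 3285 and 8978, and among the lines from 5238 to 3387 in the compared groups only. Over all genes, the median log2 difference shifted under RLE scaling by -0.144 in ih_CTC and -0.126 in ih_DCTC against MDSC. Under upper quartile scaling it shifted by 0.271, 0.171 and 0.22 in C12, ih_CTC and ih_DCTC and by -0.13 in MDSC against MSC. No paired analysis was possible because the labels give no replicate numbers. Depth limits Pdcd1lg2, Cd86, Ido1 and Arg1 in the lines, where a floor of 3 counts over a group lies at 0.0834 to 0.121 CPM.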
